A study of Mus musculus with 6 samples.

Results

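The genes of the translation initiation factors were taken as every non-control probe whose gene name on the array begins with Eif and a digit from 1 to 6, with the kinases Eif2ak1 to Eif2ak4 left out. The rule found 88 probes for 54 genes, among 55681 non-control probes that carry 34817 names. The 54 genes include 3 encoding eIF4E-binding proteins. They also include 4 that the array names Eif2c1 to Eif2c4, older names of the Argonautes Ago1 to Ago4. Argonautes carry microRNAs and are not initiation factors, so they are described apart.

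The samples were erythroid progenitors of mouse fetal liver at embryonic day E14.5, a stage at which the liver is a main site of red cell formation. The cells were selected with the EasySep kit, infected with retrovirus made in 293T cells, and cultured for 3 days with dexamethasone, erythropoietin and kit ligand, the same in both groups. The virus carried a short hairpin RNA against Exosc8, a core subunit of the RNA exosome that degrades and trims RNA (shExosc8, 3 arrays), or against luciferase, which mouse cells lack (shControl, 3 arrays). Strain, share of infected cells and hairpin sequences are not stated in the labels used here. The labels also leave unsaid whether replicates were separate animals or cultures, and the p-values therefore cover the spread of these samples alone, which may be technical. By its title, the series asked which genes Exosc8 regulates in such progenitors.

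In cap-dependent translation, eIF4E binds the cap of an mRNA, eIF4G bridges it to eIF4A, a helicase, and to eIF3 on the small ribosomal subunit. The trimeric factor eIF2 carries the initiator tRNA, eIF1 and eIF1A watch over the choice of the start codon, and eIF5 makes eIF2 hydrolyse its GTP there. The exchange factor eIF2B then reloads eIF2 with GTP, a step that stops when kinases phosphorylate eIF2 alpha, while unphosphorylated 4E-BPs take eIF4E away from eIF4G. In red cell precursors the heme-regulated kinase Eif2ak1 ties this system to globin synthesis.

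The hairpin target was low where the labels say it should be. Exosc8 read 40.4, 40.0 and 57.4% of the control mean in the shExosc8 arrays and 98.5, 97.8 and 104% in the controls, a log2 difference of -1.14 ± 0.16 (SE, n = 3 per group; limma adjusted p = 0.00554). Percentages of this kind are an array's scaled signal divided by the geometric mean of the shControl arrays for the same probe. The scanner software marked 67.3% of spots on shControl replicate 2 as well above background, against 43.1 to 49.3% on the other 5 arrays, and none as saturated. Arrays of the same group correlated at r = 0.985 to 0.997 over 21615 probes and arrays of different groups at 0.953 to 0.978. Each group filled its own row of the 1 slide used, and the effects of row and group cannot be told apart. Among erythroid markers, 11 of 12 were measured and all 11 were above background in every control. Of these, 3 rose and 1 fell, where 16.1% of all names tested rose and 13.8% fell. The summed signal of the 11 markers was 210.1 to 256 in the controls and 293 to 449 in shExosc8 (in units of each array's 75th percentile). The 12 megakaryocyte markers all rose (summed signal 6.85 to 9.96 against 64.3 to 91.7), as did the 12 neutrophil and monocyte markers (13.2 to 16.2 against 48.1 to 62.7). For macrophages, 7 of 9 measured markers rose (0.889 to 1.10 against 3.05 to 3.45), and for hepatocytes 4 of 7 (0.449 to 0.513 against 0.723 to 0.859). One of these 4, Fgb, was well above background on only 4 of 6 arrays and was kept through shExosc8, where it is high. The part of these shifts in the values of the initiation factors was not tested. In bulk RNA, fewer cells of a type and less RNA per cell cannot be told apart.

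Of the 54 genes, 49 passed the filter on dim probes, that is, had a probe detected well above background throughout 1 group or both, and 48 were above background on all 6 arrays. At an adjusted p under 0.05, 7 of the 49 differed between shExosc8 and shControl: Eif5 rose, and Eif2b1, Ago1, Eif4g3, Eif2a, Eif4g1 and Eif4e fell. That is 14.3% of the members tested, where 29.9% of all 18172 names passed the same test (16.1% higher and 13.8% lower). The groups did not overlap for 25 of the 49, or 51.0%, against 51.6% of all names. The share called was therefore below the background, and the share without overlap near it. With no scaling between arrays the order turned, at 61.2% of the members against 50.3% of all names. Leaving out shExosc8 replicate 3 raised the number of members called to 22, and leaving out another array lowered it, to 1 without shExosc8 replicate 1, 3 without shExosc8 replicate 2, 2 without shControl replicate 1, and 3 without shControl replicate 2 or replicate 3. The background moved too, to 45.7% of all names without shExosc8 replicate 3 and to between 12.9 and 18.0% without another array.

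Differences among the initiation factor genes were small and leaned downward. Their median log2 difference was -0.22, where the median of all names was -0.06. Of the 49 genes, 38 lay below 0 and 35 below the median of all names. Scaling by 1 constant per array cannot move this gap of 0.16. Under the 3 other settings tried, quantile normalization and normexp background correction with either scaling, the gap was between 0.09 and 0.23, with the members lower each time. The difference was under 0.5 in size for 44 of 49 members (89.8%), against 65.4% of all names. Members and all names were not matched for brightness, and its part in these spreads and in the gap was not tested. A single member, Ago4, differed by 2-fold or more, against 13.6% of all names; it was kept through the shExosc8 arrays, where it is high, since 1 control array was not well above background, and that array's dim value enters its fold. In the shExosc8 arrays the median member stood at log2 -0.17, -0.26 and -0.09 relative to the control mean, and in the controls at 0.03, -0.00 and -0.03. The median of all names stood at -0.06, -0.01 and -0.07 in the shExosc8 arrays and at -0.02, 0.02 and -0.02 in the controls. By its median member, replicate 3 of shExosc8 was the closest of its group to the controls. On that array the members lay little below all names, and the gap came mainly from replicates 1 and 2.

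**Figure D1:**
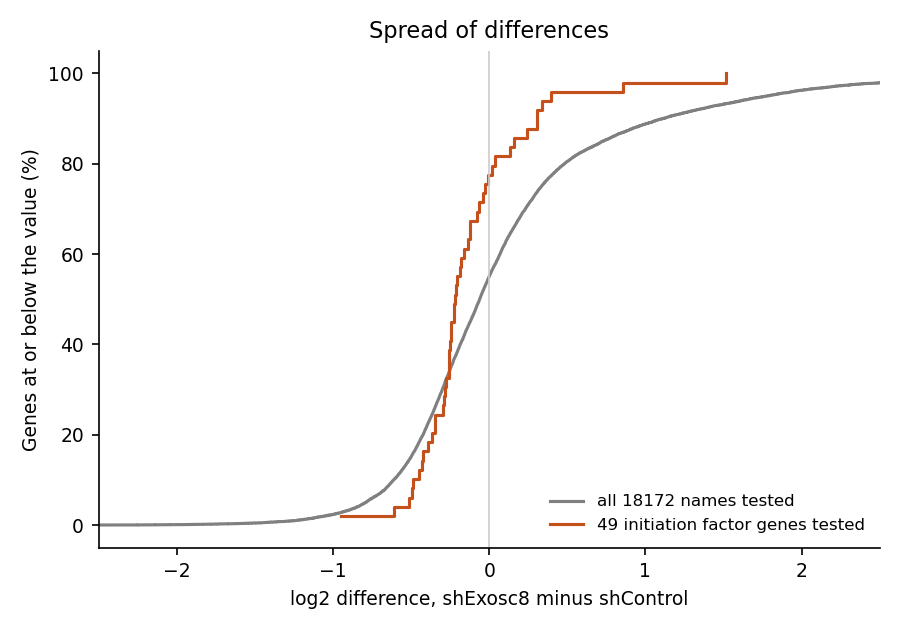
Cumulative share of genes (vertical axis, percent) at or below a given log2 difference between shExosc8 and shControl (horizontal axis) for all 18172 names tested (grey) and the 49 initiation factor genes tested (orange). The orange curve is steeper and reaches 77.6% at 0, where the grey curve is at 55.1%.

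**Figure D2:**
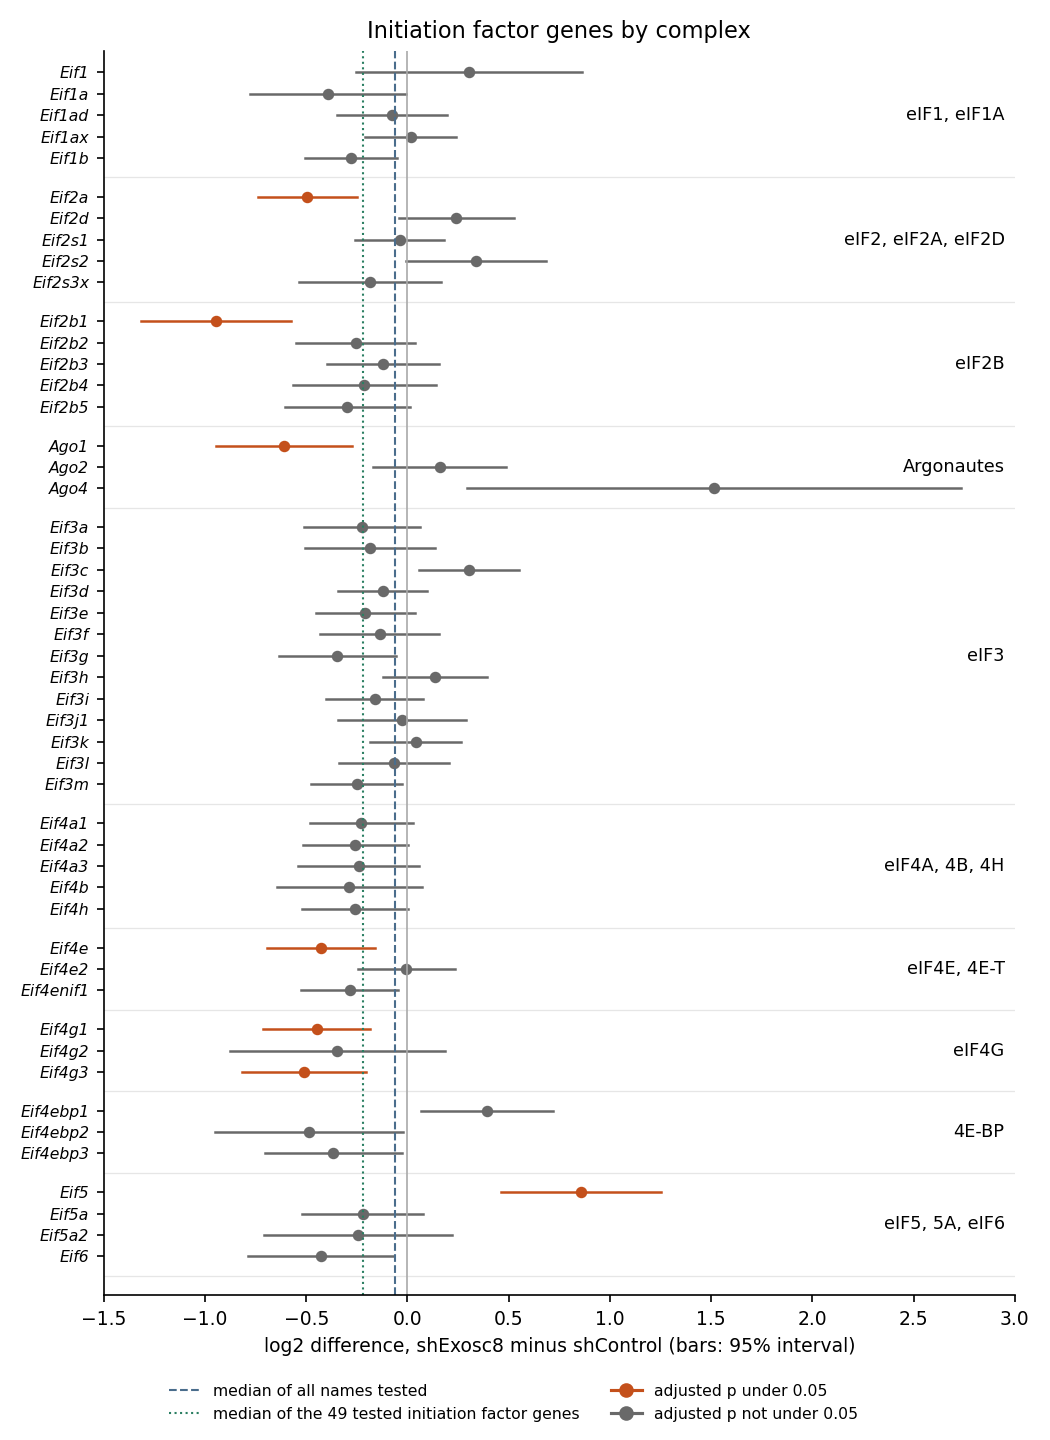
Log2 difference of each of the 49 genes tested (points) with its 95% interval from limma (bars), n = 3 arrays per group, ordered by complex. The 7 genes past the threshold are orange, the dashed line is the median of all names (-0.06) and the dotted line the median of the members (-0.22); most points lie between -0.5 and 0.

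Among the genes of eIF1, eIF1A and their relatives by name, none of the 5 measured passed the test. Eif1 read 118, 118 and 72.0% of the mean in the controls and 127, 142 and 105% in shExosc8, and the groups overlapped (log2 difference 0.30 ± 0.23; adjusted p = 0.342); its direction turned to -0.19 with no scaling between arrays. A second probe of Eif1 read 104, 103 and 93.2% in the controls and 129, 125 and 111% in shExosc8, without overlap, and did not pass the test either (0.28; adjusted p over probes = 0.106). Eif1ax, the X-linked copy of eIF1A, was at 0.02 ± 0.09, and Eif1a, its autosomal relative, at -0.39 ± 0.16 (adjusted p = 0.107). Eif1b was at -0.28 and Eif1ad at -0.08.

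For the eIF2 trimer, the gene of the alpha subunit, Eif2s1, was flat by its brighter probe. That probe read 103, 99.7 and 97.8% in the controls and 94.6, 99.0 and 98.5% in shExosc8 (log2 difference -0.04 ± 0.09, 95% interval -0.26 to 0.18; adjusted p = 0.763). A second probe, 1698 bases further along chromosome 12 (79987922 to 79987981 on mm9), read 113, 102 and 86.1% in the controls and 53.1, 47.4 and 61.0% in shExosc8 (log2 -0.90; adjusted p over probes = 0.0101). The 2 probes of Eif2s1 thus gave different answers, and their difference within arrays did not overlap between the groups. With the mean of both probes Eif2s1 was at -0.47 and passed (adjusted p = 0.0254). The beta subunit, Eif2s2, was at 0.34 ± 0.14 (adjusted p = 0.116), with 129, 141 and 111% in shExosc8 overlapping the controls at 98.8, 114 and 89.1%.

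The gamma subunit has an X-linked and a Y-linked gene. Eif2s3x read 99.1, 112 and 90.2% in the controls and 87.2, 101 and 76.9% in shExosc8, and the groups overlapped (log2 difference -0.19 ± 0.15; adjusted p = 0.350). Eif2s3y was left out of the fit, because its 1 spot was flagged as non-uniform on shControl replicate 2. Relative to the mean of the 2 usable controls, it read 103 and 97.2% in those controls and 115, 139.9 and 98.3% in shExosc8, and the flagged spot read 212%. The mean of the usable arrays differed by 0.22 on the log2 scale, without a test. The Y-linked gene was well above background on all 6 arrays.

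Eif2a encodes eIF2A, a single-chain protein that can bring tRNA to the ribosome without eIF2. It fell by 0.50 ± 0.10 on the log2 scale to 71.0% of control (95% interval 59.9 to 84.0%; adjusted p = 0.0163). The 3 shExosc8 arrays stood close together at 69.6, 71.3 and 71.9%, below the controls at 95.7, 109 and 96.2%. The call was lost without shExosc8 replicate 1 (adjusted p = 0.0697), shControl replicate 1 (0.0553) or shControl replicate 2 (0.0598). Eif2d, which encodes another protein that delivers tRNA outside the eIF2 route, was at 0.24 ± 0.12 (adjusted p = 0.159). The deposited sequence of the Eif2a probe, which stands on chr3:58352658-58352717 of mm9, plus strand, is shown with those of the second probe of Eif5 and the brighter probe of Eif4e2, both described further on, because these are probes whose readings are given here; all are printed in lower case 5′ to 3′ with no part marked.
Eif2a: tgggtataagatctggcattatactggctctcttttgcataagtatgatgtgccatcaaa
Eif5: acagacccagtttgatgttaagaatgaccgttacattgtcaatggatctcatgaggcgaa
Eif4e2: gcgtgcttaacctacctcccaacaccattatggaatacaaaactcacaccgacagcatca

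The eIF2B complex held the largest fall among the members. Eif2b1, which encodes the alpha subunit that senses phosphorylated eIF2, read 61.6, 53.0 and 42.9% of the control mean in shExosc8 and 106, 97.2 and 96.7% in the controls. The groups were far apart, and the log2 difference was -0.95 ± 0.15, or 51.9% of control (95% interval 40.1 to 67.2%; adjusted p = 0.00815). It passed the test without any 1 array in turn, with adjusted p up to 0.0397. The gene has 1 probe, on chromosome 5 at 125020985 to 125021044 of mm9, minus strand. The other 4 subunits did not pass: Eif2b5, the catalytic subunit, was at -0.30 ± 0.13 (adjusted p = 0.122), Eif2b2 at -0.26, Eif2b4 at -0.21 and Eif2b3 at -0.12. All 5 genes of the complex lay below the median of all names, also under quantile normalization and both normexp settings.

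The genes upstream of eIF2 and downstream of its phosphorylation are no members. Of 7 kinase, phosphatase and target genes listed, 3 rose and 2 fell, where 16.1% of all names rose and 13.8% fell. Eif2ak1, the heme-regulated kinase, read 287, 269 and 214% of the control mean in shExosc8 and 109, 115 and 79.9% in the controls (log2 1.35 ± 0.19; adjusted p = 0.00502). Eif2ak2, the kinase activated by double-stranded RNA, read 35.5, 43.4 and 27.7% in shExosc8 and 102, 108 and 90.4% in the controls (-1.52 ± 0.18; 0.00323). Eif2ak4, which responds to uncharged tRNA, read 55.0, 59.1 and 56.8% in shExosc8 and 102, 97.7 and 100.6% in the controls (-0.81 ± 0.09; 0.00270). These 3 genes passed the test without any 1 array in turn. The other two that passed, named after their values were seen, were Ppp1r15a, a stress-induced subunit of the eIF2 alpha phosphatase (1.78 ± 0.29; adjusted p = 0.00786), and Atf4, a transcription factor translated when eIF2 alpha is phosphorylated (0.73 ± 0.21; 0.0465). Atf4 kept its call without shExosc8 replicate 3 and lost it without each of the other 5 arrays (adjusted p up to 0.122). Eif2ak3 and Ppp1r15b did not pass. The alpha subunit's phosphorylation is not measured by these arrays.

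The eIF3 complex, the scaffold on the small ribosomal subunit, had no gene past the threshold among 13 measured. Their log2 differences ran from -0.35 (Eif3g; adjusted p = 0.0708) to 0.31 (Eif3c; 0.0655), with a median of -0.14. Of the 13 genes, 10 lay below 0, and the median was 0.08 below that of all names. Under quantile normalization and both normexp settings that gap was between 0.01 and 0.14. Standard errors of about 0.09 to 0.13 put the 95% interval of Eif3d, for example, at -0.34 to 0.10. Eif3c, a core subunit, Eif3h, a subunit with an MPN fold, and Eif3k, a peripheral subunit, lay above 0. Each of the 3 had another probe below 0, and none of their probes passed: those of Eif3c were at 0.31, 0.14 and -0.20, those of Eif3h at 0.14 and -0.11, and those of Eif3k at 0.04, -0.12 and -0.09. One of 3 probes of Eif3j1, which encodes a loosely bound subunit, passed on its own (-0.47; adjusted p over probes = 0.0450). Another was at -0.42 without overlap and did not pass (adjusted p over probes = 0.0681), while the probe that stood for the gene was at -0.03.

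The cap-binding complex eIF4F held 3 of the 6 falls. These were 1 of 3 genes tested in the eIF4E list and 2 of 3 in that of eIF4G. None of 5 fell in the list of eIF4A and its stimulators, where 13.8% of all names fell. Counts this small are not read as particular to the complex. Eif4e, which encodes the cap-binding protein, read 72.3, 72.3 and 78.4% of the control mean in shExosc8 and 102, 90.9 and 108% in the controls, without overlap. Its log2 difference was -0.43 ± 0.11, or 74.3% of control (95% interval 61.8 to 89.3%; adjusted p = 0.0320). A second probe of Eif4e, 1191 bases away, read 87.7, 90.6 and 92.7% in shExosc8 and 102, 91.7 and 107% in the controls, which overlapped (-0.15; adjusted p over probes = 0.324). With the mean of both probes the call was lost (-0.29; 0.0839). It was also lost without shExosc8 replicate 1 (0.111), shExosc8 replicate 2 (0.0813), shControl replicate 1 (0.109) or shControl replicate 3 (0.0972).

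Eif4g1, the main eIF4G scaffold, read 73.4, 66.6 and 80.4% in shExosc8 and 103, 99.2 and 97.7% in the controls, without overlap (-0.45 ± 0.11; adjusted p = 0.0277). Eif4g3, its close relative, read 66.3, 66.2 and 78.6% in shExosc8 and 89.7, 105 and 106% in the controls (-0.51 ± 0.13; adjusted p = 0.0286). Without shExosc8 replicate 3 both kept their calls, at -0.52 and -0.59, and without each of the other 5 arrays both lost them (adjusted p up to 0.102 for Eif4g1 and 0.104 for Eif4g3). Both normexp settings also ended the calls, with adjusted p of 0.132 and 0.158 for Eif4g1 and 0.0853 and 0.0788 for Eif4g3. With the mean of its probes Eif4g3 was at -0.30 (adjusted p = 0.220). A second probe of Eif4g3 was well above background in the controls but on no shExosc8 array, at -0.08. Eif4g2 encodes DAP5, which lacks the site for eIF4E. It read 93.0, 92.2 and 56.7% in shExosc8 and 113, 96.6 and 91.4% in the controls, so that replicate 3 stood apart and the groups overlapped (-0.35 ± 0.22; adjusted p = 0.258). Without that array the difference was -0.11.

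**Figure D3:**
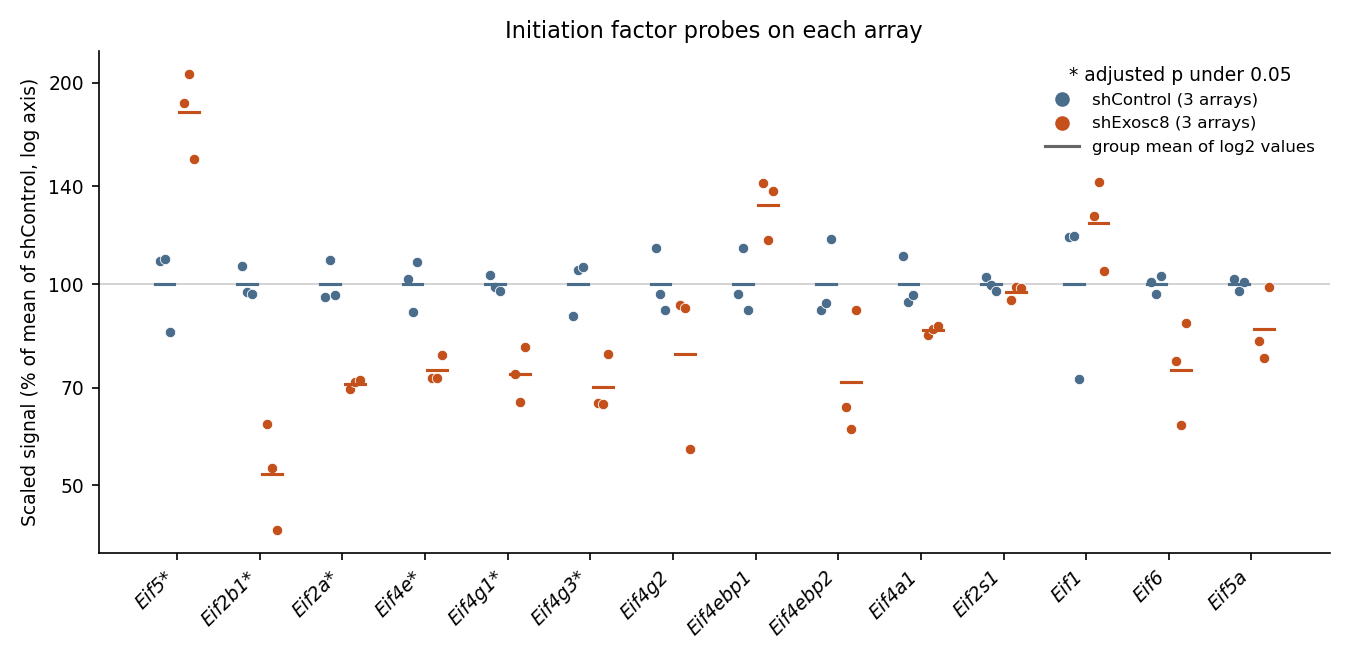
Scaled signal of 14 initiation factor genes on each array, as percent of the geometric mean of shControl (vertical log axis); blue points are the 3 shControl arrays, orange points the 3 shExosc8 arrays, short lines the group means, and stars mark an adjusted p under 0.05. The shExosc8 points of Eif5 lie at 154% or more and those of Eif2b1 at 61.6% or less, while those of Eif2s1 lie among the controls.

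The helicase genes differed little, and by like amounts. Eif4a1 read 83.8, 85.8 and 86.5% in shExosc8 and 110.3, 94.1 and 96.4% in the controls, without overlap (-0.23 ± 0.11; adjusted p = 0.141). Eif4a2 read 76.6, 86.8 and 88.0% in shExosc8 and 106, 98.9 and 95.8% in the controls, again without overlap (-0.26 ± 0.11; adjusted p = 0.111). Neither passed the threshold, and neither did Eif4a3 (-0.24), a component of the exon junction complex, nor Eif4b (-0.29) and Eif4h (-0.26), which stimulate the helicase. All 5 lay below the median of all names, also under quantile normalization and both normexp settings. One of 3 probes of Eif4b passed on its own (-0.56; adjusted p over probes = 0.0276), the others being at -0.29 and -0.23.

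Other proteins that bind the cap or eIF4E gave mixed readings. Eif4e2, which encodes the cap-binding repressor 4EHP, was flat by its brighter probe (-0.01 ± 0.10; adjusted p = 0.970), with 100.5, 93.2 and 106% in shExosc8. A second probe 2618 bases away read 74.4, 60.9 and 79.9% in shExosc8, below the controls at 102, 97.0 and 101% (-0.49; adjusted p over probes = 0.0382). Eif4enif1, the eIF4E transporter gene, did not pass (-0.28 ± 0.10; adjusted p = 0.0719). Eif4e1b was below background on all 6 arrays. Eif4e3, with 1 control array above background, and Eif5b and Ago3, with 2 each, were not well above background on any shExosc8 array and had no value in the fit; shControl replicate 2 was among those control arrays each time.

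The 4E-BP genes did not pass the test, and the best known of them stood on the other side of 0 from its relatives. Eif4ebp1 read 142, 116 and 138% in shExosc8 and 96.7, 113 and 91.4% in the controls, without overlap (0.39 ± 0.14, 95% interval 0.07 to 0.72; adjusted p = 0.0693); with limma's trend and robust options it passed (0.0349), and with no scaling between arrays its difference was -0.11. Eif4ebp2 read 65.4, 60.7 and 91.6% in shExosc8 and 91.4, 93.8 and 117% in the controls, which overlapped at replicate 3 (-0.49 ± 0.19; adjusted p = 0.0983). Without shExosc8 replicate 3 Eif4ebp2 was at -0.67 with an adjusted p of 0.0161, and it also passed with a replicate block (0.0378) and under both normexp settings (0.0248 and 0.0251). Eif4ebp3 was at -0.37 ± 0.14 (adjusted p = 0.0906).

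The difference between related genes on the same array is unchanged when all of an array's values are scaled by 1 constant, though not by quantile normalization or another background correction. Of 11 listed pairs, 9 had both members measured. In 5 of the 9, the shExosc8 values did not overlap the controls, a share near the 51.6% of single names without overlap, with an exact two-sided permutation p of 0.100, the smallest that 3 arrays against 3 can give, and 0.180 after Benjamini-Hochberg adjustment over the 9 pairs. Eif4ebp1 stood higher relative to Eif4ebp2 by a mean of 0.88 and in 3 of 3 shExosc8 arrays (1.11, 0.94 and 0.59 above the control mean). A permutation test of 3 arrays against 3 cannot reach the threshold. Eif4e stood lower relative to Eif4ebp1 by a mean of -0.82 (-0.97, -0.68 and -0.81) and relative to Eif4e2 by -0.42 (-0.48, -0.37 and -0.43). Eif1 relative to Eif1b was at 0.58 and Eif1a relative to Eif1ax at -0.41. For Eif4a1 and Eif4a2 the mean change was 0.03, and for Eif4g1 and Eif4g3 it was 0.06, both with overlap (exact permutation p = 0.700 and 0.600). Eif4g1 and Eif4g2 changed by -0.10 with shExosc8 replicate 3 on the other side of 0 (0.13 and 0.15 under the normexp settings), and Eif5a and Eif5a2 by 0.02.

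**Figure D4:**
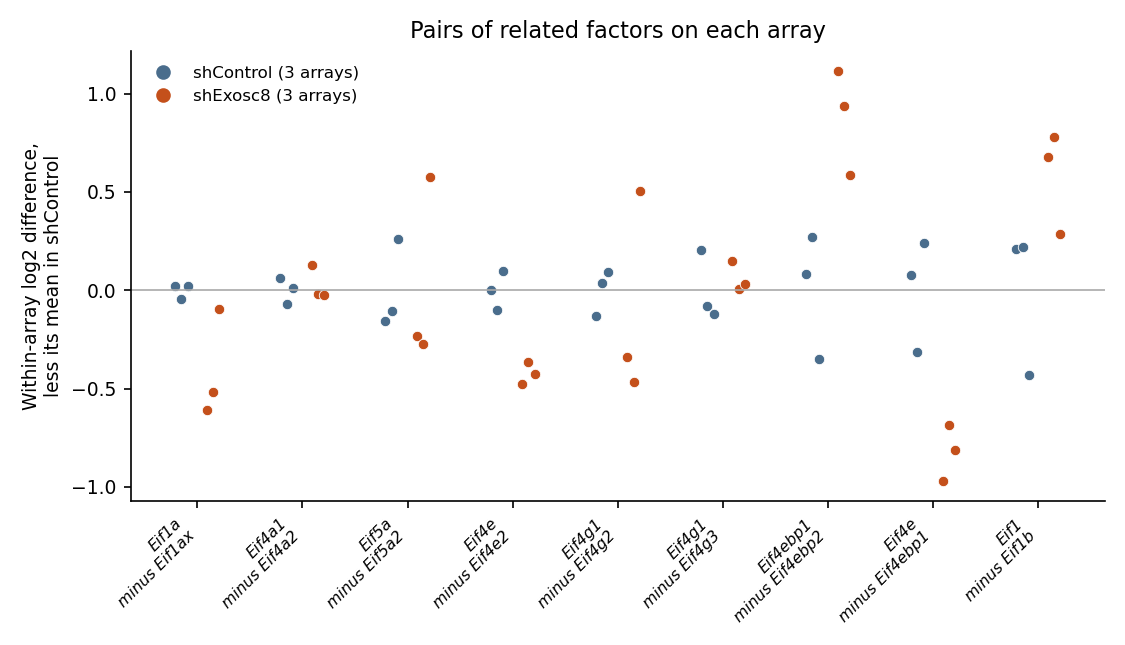
Within-array log2 difference of 9 pairs of initiation factor genes, less its mean in shControl (vertical axis), for the 3 shControl arrays (blue) and 3 shExosc8 arrays (orange). The orange points of Eif4ebp1 minus Eif4ebp2 lie between 0.59 and 1.11 and those of Eif4e minus Eif4ebp1 between -0.97 and -0.68, outside the control points.

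The 4E-BPs are controlled by the kinase complex mTORC1. Of 11 genes of this complex and its regulators, 2 rose and 3 fell, where 16.1% of all names rose and 13.8% fell. Mtor, the kinase itself, read 69.2, 65.6 and 71.6% in shExosc8 and 98.2, 101 and 100.4% in the controls (-0.54 ± 0.09; adjusted p = 0.00993), and it passed without any 1 array in turn. Ddit4, also known as REDD1, read 259.8, 294 and 145% in shExosc8 and 112, 104 and 85.5% in the controls (1.16 ± 0.28; 0.0272). Akt1s1, which encodes PRAS40, was at 0.46 ± 0.12 (0.0310). The falls beside Mtor were Rptor (-0.52; adjusted p = 0.0434) and Deptor (-0.70; 0.0397), named after their values were seen. Tsc2 had the lowest difference of the 11 genes, at -0.99 ± 0.42, without overlap, but did not pass (adjusted p = 0.120). It was well above background on 5 arrays. Ddit4, Akt1s1, Rptor and Deptor kept their calls without shExosc8 replicate 3 and lost them without each of the other 5 arrays, with adjusted p up to 0.0942, 0.113, 0.126 and 0.125.

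Eif5 was the member that rose. Its brighter probe read 187, 207 and 154% of the control mean in shExosc8 and 108, 109 and 84.7% in the controls, without overlap, a log2 difference of 0.86 ± 0.16 or 1.81-fold (95% interval 1.38 to 2.38; adjusted p = 0.0132). The second probe, whose sequence is printed above, stands 6350 bases upstream on chr12:112778375-112778434 of mm9, plus strand. It read 149.98, 146 and 153% in shExosc8 and 106, 107 and 88.5% in the controls and passed on its own (0.58; adjusted p over probes = 0.0158). Eif5 was the 1 gene of 20 with several probes kept in which more than 1 probe was called and the probe standing for the gene was among them. Without shExosc8 replicate 1 its adjusted p was 0.0549, and without each of the other 5 arrays it was 0.0431 or less. With no scaling between arrays it was at 0.36 (adjusted p = 0.244), where all names had a median of -0.56.

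The remaining late factors did not pass the test, though Eif6 and Eif5a did under alternatives. Eif5a, whose hypusine-bearing protein acts mainly in elongation and termination, read 82.1, 77.6 and 99.0% in shExosc8 and 102, 97.6 and 101% in the controls, which overlapped (-0.22 ± 0.12; adjusted p = 0.205). Without shExosc8 replicate 3 it was at -0.33 (adjusted p = 0.0346). Its relative Eif5a2 was at -0.24 (adjusted p = 0.358). Eif6, which keeps the large subunit from joining too early, read 76.6, 61.5 and 87.6% in shExosc8 and 101, 96.6 and 103% in the controls, without overlap (-0.43 ± 0.15; adjusted p = 0.0736). Of its 3 probes, 1 passed on its own, at -0.75 (adjusted p over probes = 0.0336), and the others were at -0.43 and -0.41. Eif6 passed under several alternatives: without shExosc8 replicate 3 (-0.54; adjusted p = 0.0210), with the mean of its probes (-0.53; 0.0131), with the percentile over all probes (-0.57; 0.0412), with no scaling (-0.92; 0.0157) and with limma's trend and robust options (-0.43; 0.0400). Under others it did not pass, among them quantile normalization (adjusted p = 0.0814), both normexp settings (0.201 and 0.212) and the replicate block (0.0669). Nor did it pass without each of the other 5 arrays (adjusted p from 0.135 to 0.176).

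The Argonaute genes that share the older Eif2c name gave mixed readings. Ago1 read 65.3, 56.4 and 76.3% in shExosc8 and 106, 94.6 and 99.8% in the controls (-0.61 ± 0.14; adjusted p = 0.0224), a call kept without shExosc8 replicate 3 and lost without each of the other 5 arrays (adjusted p up to 0.0845) and under normexp with the 75th percentile (-0.38; adjusted p = 0.0866). Ago2, the Argonaute that cuts its targets, was at 0.16 by its brightest probe (adjusted p = 0.394), while its other two probes passed at 0.92 and 0.49 (adjusted p over probes = 0.0460 and 0.0367). Ago4 read 624, 201 and 186% in shExosc8 and 117, 68.7 and 124% in the controls, of which 1 array was not well above background (1.52 ± 0.51; adjusted p = 0.0650). Without the Argonautes, 6 of 46 initiation factor genes passed the test, with a median difference of -0.22.

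Probes of 1 gene often gave different calls. In the fit of each probe on its own, 15 of 75 member probes passed (4 higher, 11 lower), where 27.8% of all 24836 probes did. They belonged to 13 genes. Of the 20 genes with several probes kept, 8 had a call on some probes and not on others, and none had calls in both directions. In 19 of 26 comparisons the other probe read lower relative to the brightest probe of its gene. The difference between the probes itself did not overlap between the groups in 8 of the 26, those of Eif2s1, Eif3h, Eif3j1 (both other probes), Eif3k, Eif4b, Eif4e and Eif4e2, and none of the 26 can pass an exact permutation test of 3 arrays against 3. The counts of 8 of 20 genes and of 19 and 8 of 26 comparisons were not set beside all genes with several probes. They are not read as particular to the initiation factors. Which transcript ends or exons these probes meet was not analysed here.

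**Figure D5:**
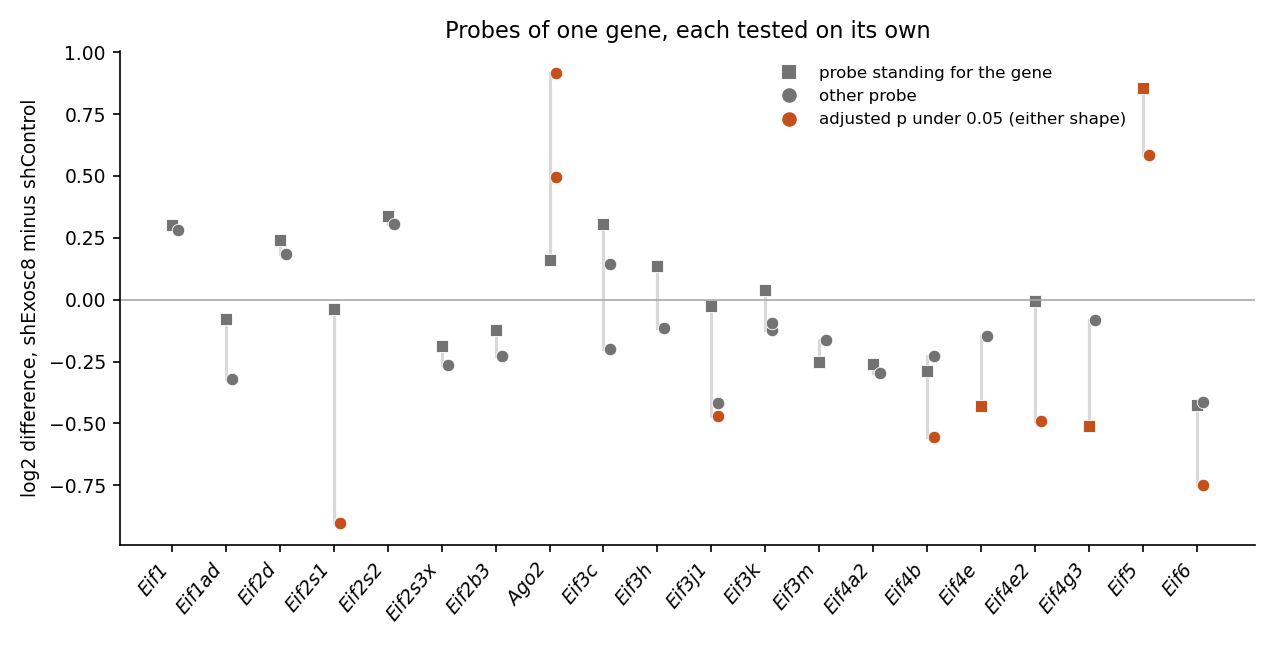
Log2 difference between shExosc8 and shControl for each kept probe of the 20 initiation factor genes with several (vertical axis), each tested on its own. Squares are the probe that stands for the gene, circles the others, and orange marks an adjusted p under 0.05; both probes of Eif5 are orange, whereas Eif2s1 has a grey square at -0.04 and an orange circle at -0.90.

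Partners of the initiation factors gave 2 calls among 14 genes, or 14.3%, where 29.9% of all names were called. The same background holds for the elongation and release factor genes (10% called) and the pyrimidine-tract mRNAs (15.4%) below. Pabpc1, the poly(A)-binding protein that joins the mRNA tail to eIF4G, read 173, 169 and 179% in shExosc8 and 98.7, 109 and 92.9% in the controls (0.80 ± 0.11; adjusted p = 0.00428), and it passed without any 1 array in turn. Mcts1, which works with Denr in reinitiation, fell by 0.33 ± 0.10 on the log2 scale (adjusted p = 0.0463), a call lost without each array other than shExosc8 replicate 3 (adjusted p up to 0.131). Dhx29, a helicase that helps the small subunit through structured leaders, did not pass (-0.50 ± 0.16; adjusted p = 0.0548). Among 10 elongation and release factor genes, 1 fell, Eef1e1 (-0.54; adjusted p = 0.0495), also lost without each array other than shExosc8 replicate 3 (adjusted p up to 0.153). Of 13 mRNAs known for a pyrimidine tract at their start, whose translation follows mTORC1 and among which are the members Eif3e, Eif3f, Eif3h and Eif4b, 2 rose and none fell: Pabpc1 and Tpt1 (0.49 ± 0.15; adjusted p = 0.0488). Tpt1, too, was past the threshold only without shExosc8 replicate 3 when 1 array was left out. The median over the 13 was -0.08.

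Promoter windows from RefSeq (GRCm38.p6), each 250 bases before to 50 after an annotated start, matched 42 of the 54 genes. The E-box CACGTG, which Myc and related factors can bind and which reads the same on both strands, occurred in windows of 10 of the 42 (23.8%) and of 8.09% of all 27025 genes in the table. A gene was counted when any of its windows held the E-box. Those 27025 were not limited to genes measured on these arrays, here or for the motifs below. The 10 were Eif1b, Eif3a, Eif3f, Eif3k, Eif4a1, Eif4e, Eif4g1, Eif4h, Eif5a and Eif5a2. Of them, 2 fell and none rose, where 13.8% of all names tested fell and 16.1% rose. The median log2 difference of the 10 was -0.24, with a range of -0.45 to 0.04. Of the 29 tested members with a window and no E-box, 1 rose and 4 fell, with a median of -0.19. The window of Eif5a2 also held the E-box at 2 places, and that gene did not pass the test (log2 difference -0.24, adjusted p = 0.358). The stretches of Eif4e and Eif4g1 were picked because both genes fell and each holds the E-box, in capitals, at 2 places. They are chr3:138527020-138527229 and chr16:20672653-20672756, both on the plus strand.
Eif4e: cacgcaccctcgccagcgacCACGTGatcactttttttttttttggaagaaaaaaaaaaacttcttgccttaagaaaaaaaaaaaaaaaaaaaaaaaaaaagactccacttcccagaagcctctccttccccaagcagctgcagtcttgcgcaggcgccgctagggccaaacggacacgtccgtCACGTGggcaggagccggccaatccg
Eif4g1: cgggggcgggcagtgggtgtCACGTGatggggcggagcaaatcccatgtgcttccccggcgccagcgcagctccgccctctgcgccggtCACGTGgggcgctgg

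In Eif4e the E-boxes begin 228 and 64 bases before an annotated start, and the window of another annotated start of the gene held no E-box. In Eif4g1 they begin 54 bases before the annotated start and at base 16 of the transcript. A match is a run of letters, and binding was not measured. A pyrimidine run of at least 5 bases beginning with C at the annotated start occurred in 2 of the 42 genes, Eif3f and Eif2s3x, and in 3.01% of all genes. Neither gene passed the test. Among the members known for such a tract, Eif4b had no such run at its annotated start, and Eif3e and Eif3h had no window. Where transcripts start in these cells, and whether mTORC1 controls them, was not measured. Their starts are shown because this run is the feature that marks mRNAs under mTORC1; the run is in capitals, chr7:108934403-108934434 on the plus strand and chrX:94212632-94212663 on the minus strand.
Eif3f: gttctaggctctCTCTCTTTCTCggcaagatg
Eif2s3x: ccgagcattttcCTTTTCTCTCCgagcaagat

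The response element that Atf4 binds with C/EBP partners (TGATGNAA, searched on both strands) occurred in a window of Eif2s3x alone among the 42 genes, against 4.51% of all genes. Eif5, which rose, had no match to the E-box, to this element or to the pyrimidine run in its windows.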

How the data were processed

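RNA of 3 shExosc8 and 3 shControl samples was measured on 1-colour arrays. The deposited spot intensity values come from Agilent Feature Extraction 10.7.3.1 on mm9, per the file headers, with background subtracted. The authors' deposited table also holds log2 fold changes and p-values, for which the submitters' processing notes name limma; its 6 per-sample columns were not used. Flagged spots were dropped, spots of 1 probe averaged, and each array's log2 signal was scaled by its 75th percentile over 21615 probes well above background on all arrays. Probes above background on all arrays of a group were kept, and the brightest stood for its gene. Names came from RefSeq (GRCm38.p6) through accessions. Groups were compared with limma 3.58.1 in R 4.3.3 (two-sided, Benjamini-Hochberg over all names, threshold 0.05), a step tested on simulated data. Single values used exact permutation tests. The number of arrays limits the precision. Members, lists, pairs and motifs were chosen with earlier results of these data known. Values on every array are given for a set list of members, up to 4 called members per complex and 3 genes per other list by smallest p; other names were chosen after their values were seen. Alternatives were other scalings, background corrections, filters, probe rules, a replicate block, moderation with trend, and each array left out.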

Additional observations from a re-analysis of the deposited data

How the results depend on the processing

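The median log2 difference of the initiation factor genes was below 0 under every alternative tried, from -0.72 with no scaling between arrays and -0.37 with the 75th percentile over all probes (against -0.22) to -0.17, the highest value when each array was left out in turn (lowest -0.24). The number called (7; 1 rose, 6 fell) was less stable. It was 16 (15 fell) with the percentile over all probes, or 32.7% of members against 39.2% of all names. With no scaling it was 30 (29 fell), or 61.2% against 50.3%. It was 1 (0 rose, 1 fell) with no filter on dim probes, where limma called 5.21% of all names. With each probe on its own it was 13 genes with at least 1 probe called (2 rose, 11 fell), or 26.5% of members. Of all probes, 27.8% passed, a share of probes and not of genes, so the 2 shares are not alike. The count of member probes that passed is given above. Limma's trend and robust options gave 14 (4 rose, 10 fell), or 28.6% against 33.9%. Without shExosc8 replicate 3 and shControl replicate 2 together, a setting chosen after seeing the data, it was 12 (2 rose, 10 fell). That was 24.5% against 39.0%. With the mean of a gene's probes it was 8 (2 rose), or 16.3% of members against 30.3% of all names. When each array was left out in turn, 1 to 22 were called, 0 to 5 rose and 1 to 17 fell. Eif2b1 was called under all 19 alternatives. All 7 calls were kept under the percentile over all probes, the median, quantile normalization, the stricter filter, the replicate block and the trend option. Of the 7, 6 were kept with no scaling (Eif5 was lost), 5 with the mean of a gene's probes (Eif4e and Eif4g3 lost), 5 under normexp with quantile normalization (Eif4g1 and Eif4g3 lost) and 4 under normexp with the 75th percentile (Ago1 lost too). Without scaling Eif1 turned to -0.19 and Eif4ebp1 to -0.11. Among the pairs, the sign turned when arrays were left out for Eif4a1 minus Eif4a2 (-0.021 to 0.061), Eif5a minus Eif5a2 (-0.25 to 0.17) and Eif4g1 minus Eif4g2 (-0.40 to 0.081). Under normexp with the 75th percentile and with quantile normalization, settings chosen for the pairs after seeing the data, the sign turned for Eif4a1 minus Eif4a2 (-0.0037 and -0.020) and Eif4g1 minus Eif4g2 (0.13 and 0.15), and under quantile normalization alone for none of the 9 pairs. Exosc8 kept its call throughout.

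Replicate numbers are shared between the groups, but deviations of same-numbered arrays correlated at 0.04, 0.22 and 0.30, so the numbers were not taken as pairs. With a replicate block, limma called 9 members (18.4%), where it called 30.9% of all names. Of the 9, 2 rose, Ago4 (kept through shExosc8, where it is high) joining Eif5. Eif4ebp2 joined those that fell, and the other calls did not change. The median was -0.22 with the block, and Exosc8 stayed at -1.14.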

Other observations

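The authors' deposited table gives a log2 fold change of the same sign as the fit for 46 of the 49 members tested and for all 7 that were called. The median member is at -0.20 in the authors' deposited table, and the median non-control spot there at -0.08. Taking the probe that stands for each gene, no member falls under 0.05 by the adjusted p of the authors' deposited table, as 3.34% of its non-control spots do. Eif5 comes nearest, at 0.89 with an adjusted p of 0.0531 in the authors' deposited table, and Eif2b1 is at -1.08 with 0.101. The normalization behind the authors' deposited values is not stated in the labels used here.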
